A study of Bos taurus with 4 samples.

Results

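The genes described here encode the vesicle proton pump and the coats, adaptors and sorting complexes of the secretory and endosomal pathways. Members were array clones whose single mouse gene symbol in the platform annotation starts with Atp6v or Atp6ap (the pump), or names a coatomer subunit (Copa to Copz), clathrin (Clt), Sec22 to Sec24, Sec61 to Sec63, a subunit of adaptors AP-1 to AP-4, or a numbered Vps gene. They came to 220 of the 35960 library clones and stood for 97 genes, with 43 clones for the pump and 177 for coats and sorting. Another 4 spots carried several symbols and were left out. All 97 mouse symbols have a counterpart of that name or synonym among the cattle genes of RefSeq.

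Bovine chromaffin cells, the catecholamine-secreting cells of the adrenal medulla, were given 100 ng/ml of the neuropeptide PACAP and kept at 37 C for 6 h. Their RNA, marked with Cy5, was hybridised together with Cy3-marked RNA of control cells to spotted mouse cDNA libraries, and each of 4 biological repeats had its own array. Every array had the same dye orientation, so that the dye preference of a clone is part of its ratio, and RNA of cattle met mouse sequence. The tissue label reads brain, while the source label names chromaffin cells.

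The vacuolar proton pump (V-ATPase) has a cytosolic V1 sector that splits ATP and a membrane V0 sector that carries protons, and it acidifies chromaffin granules so that transporters can load them with catecholamines. COPI and COPII coats bud vesicles between Golgi and endoplasmic reticulum, whereas clathrin with its adaptors AP-1 and AP-2 buds vesicles from the trans-Golgi network, the plasma membrane and endosomes. The Sec61 channel moves nascent proteins into the endoplasmic reticulum. Vps proteins, named from yeast mutants that missort vacuolar proteins, form retromer, tethering complexes and the ESCRT machinery.

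Median intensity over the library spots was 402.7, 235.5, 99.9 and 248.2 units in the PACAP channel and 306.4, 206.4, 129.4 and 548 units in the control channel, in repeats 1 to 4. The PACAP signal passed 2 background SD on 97.6, 98.4, 97.8 and 91.9% of library spots. The control signal did so on 80.9, 53.0, 46.0 and 98.3%. Array 4 stood apart: over 33266 clones its log2 ratios correlated with those of the other arrays at r between -0.13 and -0.00, while arrays 1 to 3 correlated with each other at r between 0.22 and 0.37. Of 10 chromaffin markers 7 were tested, and 5 of these 7, Th, Chga, Chgb, Penk and Ddc, had a control signal above background on all 4 arrays. Of the 7, 3 had an unadjusted p under 0.05 in limma, all above 0 (Scg2 at 1.84, Penk at 0.86 and Chgb at 0.71). The control signal of Scg2 passed background on 2 arrays. Chga was below 0 on all 4 arrays (-0.50). Markers of adrenal cortex, fibroblasts, endothelium, leukocytes, erythrocytes and Schwann cells had median log2 ratios from -0.31 to 0.09, with 0 of their tested genes under an unadjusted p of 0.05. In bulk RNA fewer cells of a type and less RNA per cell cannot be told apart.

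No clone of the pump or of the coats passed the test for a difference between PACAP and control. Of 218 member clones tested, 0 had an adjusted p under 0.05 in limma's moderated test on log2(PACAP / control), against 0.00% of all 35109 clones, and the lowest adjusted p was 0.454 both over the members and over all clones. At an unadjusted p under 0.05, 7 member clones (3.21%) had a ratio above 0, against 3.92% of all clones, and 8 (3.67%) a ratio below 0, against 6.46% of all clones. These shares lie below the background of the arrays. With array 1, 2, 3 or 4 left out in turn, the count above 0 was 6, 4, 1 and 12. The count below 0 was 5, 3, 2 and 13. The shares over all clones with 1 array left out are not given, so that these counts have no background here. Ratios were above 0 on 4 of 4 arrays for 21 member clones (9.63%, against 9.59% of all clones) and below 0 on 4 of 4 for 26 (11.9%, against 8.25%).

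The member ratios ranged from -1.79 to 1.22 on the log2 scale, and 168 of 218 (77.1%) lay within 0.5 of 0, as did 74.4% of all clones. Precision differed with signal. The SD over arrays had a median of 0.37 for the 98 member clones with a control signal above background on all 4 arrays. It was 0.61 for the 51 with such a signal on 3 arrays, 0.73 for the 55 on 2 and 0.57 for the 14 on 1. The 95% interval of a member clone, not adjusted over clones, reached a median of 0.63 log2 units to either side. This width is not a limit of detection, as larger ratios did not pass either. The highest, 1.22, had an adjusted p of 0.454 in limma.

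Pump clones had a lower median than coat and sorting clones after loess, by little with 1 value a gene, and the difference was not tested. The median log2 ratio was -0.17 over 42 pump clones, with 16 clones above 0 and 26 below, and 0.03 over 176 coat and sorting clones, with 94 above and 82 below, against -0.01 over all clones, of which 48.6% were above 0. On arrays 1 to 4 the pump median was -0.20, -0.02, -0.19 and -0.16, and the coat and sorting median -0.04, -0.01, 0.06 and -0.00. The pump median was below the other on each array, by very little on array 2, and without array 4 the medians were -0.18 and 0.02. With 1 value for each gene, from its brightest clone, the medians were -0.02 over 17 pump genes and 0.01 over 79 coat and sorting genes. With arrays centred on their median instead of loess they were 0.15 and 0.20, against -0.03 over all clones. With the deposited ratios the median over all clones was -0.28, the baseline for family medians in that setting. Over the 11000 clones with a control signal above background on 4 arrays, it was 0.25 with median centring and -0.63 with the deposited ratios. Of such coat and sorting clones 32 were above 0 after loess and 47 below, and of the others 62 and 35.

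**Figure D1:**
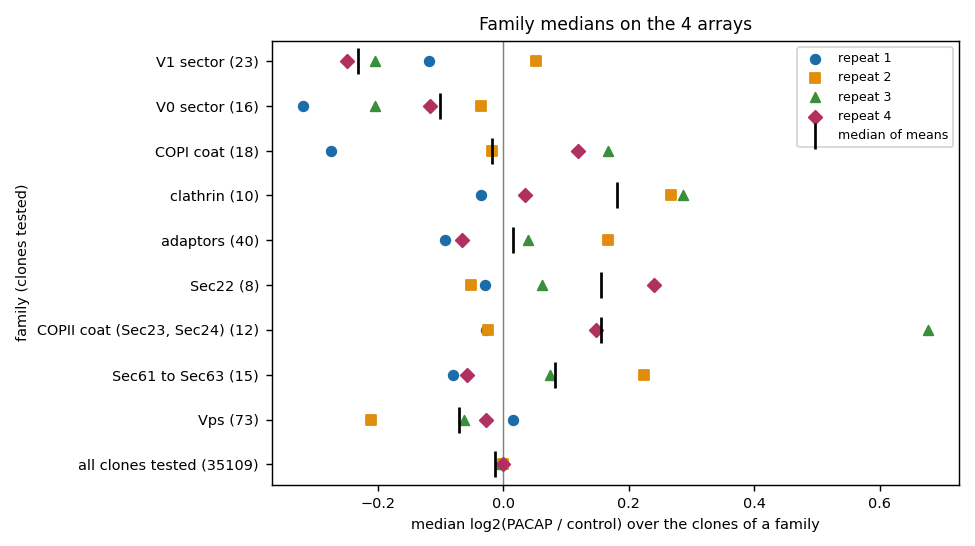
Median log2(PACAP / control) of each family (rows) on each of the 4 arrays (coloured symbols), with the median of the clones' means over the arrays as a black bar. The V1 and V0 medians (bars at -0.23 and -0.10) lie left of 0 after loess (right of it with median centring), and the COPII median reaches 0.68 on repeat 3 only.

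In the V1 sector, 9 of 23 clones had a mean above 0 and 14 below (median -0.23, but 0.29 with median centring). The B2 subunit Atp6v1b2, part of the ATP-splitting ring, was the pump gene with most clones on 1 side of 0: all 4 were below it, from -1.55 to -0.55. Its brightest clone, AW539631, read 3265, 2404, 1522 and 5477 units with PACAP, against 6053, 4448, 2245 and 7681 units in control after loess adjustment. PACAP was the lower channel on all 4 arrays. The mean log2 ratio was -0.71 ± 0.21 (SD, n = 4), a ratio of 0.613, with an unadjusted p of 0.0175 and an adjusted p of 0.454 in limma, and a 95% interval from -1.25 to -0.16. Another bright clone, AW549013, gave -0.12, -0.75, -0.75 and -0.57 on the 4 arrays (mean -0.55 ± 0.29, SD). With median centring 2 of these 4 clones turned above 0, AW539631 to 0.26 and AW549013 to 0.43. The other clones rested on array 3, where AU016471 read -2.58 and AI851534 -5.36, against -0.15 and 0.85 for AI851534 on its other arrays, so that AI851534 averaged 0.35 without array 3.

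The C1 subunit Atp6v1c1, which joins V1 to V0, had clones in both directions. AI839561 read 1114, 1052, 716 and 2603 units with PACAP, against 826, 690, 208 and 1644 units in control. Its log2 ratios of 0.43, 0.61, 1.78 and 0.66 were all above 0, with array 3 the highest (mean 0.87 ± 0.62, SD, n = 4, and limma adjusted p = 0.454). AW537398 was likewise above 0 on all 4 arrays but spread from 0.05 to 2.69, and its control signal passed background on 2 arrays. The other 3 clones had means of -0.34, -0.23 and -0.46, and the last of them, AW049988, carries a clone title that names an even skipped homeobox homolog.

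Among the remaining V1 subunits, the catalytic A subunit Atp6v1a had 4 clones between -0.50 and 0.44. Atp6v1e1, of the peripheral stalk, had 3 between -0.29 and 0.78, and AI844873 at 0.78 was above 0 on arrays 1 to 3 but read -0.34 on array 4. The 2 clones of the stalk subunit Atp6v1g1 disagreed, at 0.39 and -0.88. Atp6v1g2, the stalk isoform of neurons, had 1 clone at 0.04 ± 0.44 (SD). Atp6v1d, of the central rotor, had clones at 0.15 and -0.21, Atp6v1c2 1 at -0.43, and the regulatory H subunit Atp6v1h 1 at 0.37, with 2.27 on array 3. None of these clones had an unadjusted p under 0.05.

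In the V0 sector 5 of 16 clones were above 0 and 11 below (median -0.10, but 0.05 with median centring). The 2 genes for the small e subunit, Atp6v0e and Atp6v0e2, lay on opposite sides of 0 in all their clones after loess, while 1 clone of each turned in another setting. For Atp6v0e the 3 clones had means of 0.45, 0.50 and 0.64, and 1 of them turned to -0.17 with the deposited ratios. AW045389 read 376, 249, 111 and 463 units with PACAP, against 311, 135, 45.5 and 426 units in control. It was above control on all 4 arrays (mean log2 ratio 0.64 ± 0.54, SD, n = 4, limma adjusted p = 0.480). Its control signal passed background on 2 arrays, so that it entered the test through the PACAP channel. For Atp6v0e2 the 3 clones had means of -0.27, -0.32 and -0.62. AI841507 read 415, 229, 137 and 460.0 units with PACAP, against 557, 472, 229 and 558 units in control. It was below control on all 4 arrays (mean -0.62 ± 0.34, SD, n = 4, limma adjusted p = 0.467). The difference between both genes was not tested, and 1 Atp6v0e2 clone turned to 0.34 with median centring.

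The proton-path a subunits of V0 lay between -0.45 and 0.06 over their clones. Atp6v0a1, the isoform of neurons and secretory granules, had clones at -0.06 and -0.40, and Atp6v0a4, known from kidney, read 0.02, -0.02, -0.09 and 0.13 on the 4 arrays in C86403, 1 of the tightest pump clones (SD 0.09). Atp6v0a2, of the Golgi, had clones at -0.13 and -0.45 with a control signal above background on 1 array. The ring subunit Atp6v0b gave -0.08 and -0.33, and Atp6v0d1, which seats the rotor on the ring, -0.02 and -0.25. Of the accessory proteins, Atp6ap2, the (pro)renin receptor, had clones at 0.18, 0.08 and -0.27. The single Atp6ap1 clone did not pass the signal filter.

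**Figure D2:**
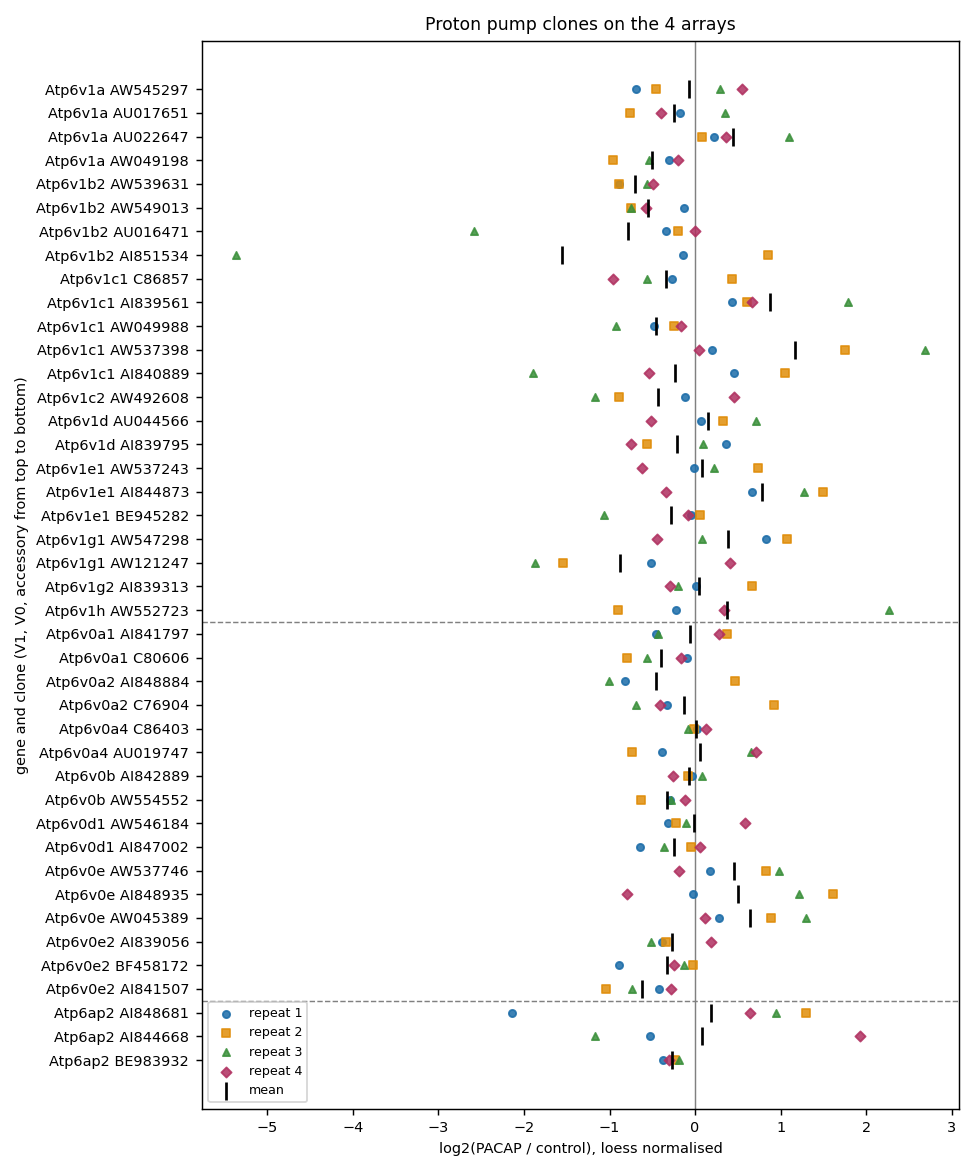
log2(PACAP / control) of the 42 tested pump clones (rows, by gene and brightness within V1, V0 and accessory proteins) on each of the 4 arrays, with the mean as a black bar. After loess all 4 Atp6v1b2 means and all 3 Atp6v0e2 means lie left of 0 (2 and 2 with median centring), and all 3 Atp6v0e means right of 0 (2 with the deposited ratios), and green triangles (repeat 3) form most of the far points.

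Genes that work beside the pump gave no common direction. Of 20 such genes listed for the comparison 16 were tested, with a median of 0.02 against 0.03 over all 11740 named genes, and 0 above 0 and 1 below 0 under an unadjusted p of 0.05. Over all named genes, each by its brightest clone, 4.33% were above and 4.53% below 0 at that level, so that the count lies near this background. The gene was Wdr7, a chain of the rabconnectin that binds V1. It read -0.77, -1.98, -2.23 and -0.56 on the 4 arrays (mean -1.38 ± 0.84, SD, limma adjusted p = 0.454). Dmxl2, the other rabconnectin chain, had a mean of 0.16 ± 0.34 (SD). The lysosomal proton channel Tmem175 gave -0.62, the vesicular nucleotide transporter Slc17a9 0.61, the a3 subunit Tcirg1 -0.57 and the granule amine transporter Slc18a1 -0.31.

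Among coats, the COPI coatomer was split evenly, with 8 of 18 clones above 0 and 10 below (median -0.02, but 0.25 with median centring). Copa, the alpha subunit of the outer cage, had the only COPI clone with an unadjusted p under 0.05. AW551796 read 4139, 1365, 863 and 2120.3 units with PACAP, against 5347, 2111, 1725 and 2731 units in control, lower on all 4 arrays. Its mean log2 ratio was -0.59 ± 0.30 (SD, n = 4, limma adjusted p = 0.472), but 0.28 with median centring, and the other Copa clone gave -0.03 ± 0.30 (SD). Copg1, the gamma subunit of the adaptor-like layer, had 3 clones at -0.40, -0.32 and -0.52. With median centring all 3 were above 0, from 0.004 to 0.30. The 11000 clones of the whole table with a control signal on 4 arrays had a median of 0.25 in that setting. The 4th Copg1 clone, at 0.68, carries a title naming activity-dependent neuroprotective protein.

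The zeta subunit Copz1 lay on the other side, with clones at 0.48, 0.07 and 0.53, of which 1 was below 0 with the deposited ratios. The control signal of C81275 (0.07) and AI841743 (0.53) passed background on 2 arrays, so that they entered the test through the PACAP channel. AI841743 read 1.94 on array 3, against -0.17 to 0.19 on the others. AW537667 was above 0 on all 4 arrays (0.11, 0.82, 0.76 and 0.21). The beta' subunit Copb2 gave -0.10 and 0.25, the epsilon subunit Cope -0.01, -0.30 and 0.17, Copb1 0.23, Copg2 -0.15 and 0.17, and Copz2 -0.22. The coatomer subunits thus had no shared direction on these arrays.

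Of the COPII coat, 9 of 12 clones were above 0 and 3 below (median 0.16). With the deposited ratios the COPII median was -0.45, against -0.28 over all clones. The cargo-binding Sec24 subunits made up most of the COPII clones above 0, with 6 of 7 clones above 0 and a median of 0.37. The Sec24 median was 0.18 without array 3 and -0.53 with the deposited ratios. By array the Sec24 median was -0.00, 0.01, 1.22 and -0.12, so that only array 3 lay well away from 0. Sec24a had clones at 0.59 and 0.23, Sec24b at 0.44 and 0.37, and Sec24d at 0.61. Both Sec24c clones, at 0.01 and -0.99, carry titles naming the retinitis pigmentosa GTPase regulator. Without them all 5 Sec24 clones were above 0, with a median of 0.44, which was 0.19 without array 3 and 1.18 with the deposited ratios. None of these 5 clones had a control signal above background on all 4 arrays. Sec24a AW556959 and Sec24d AW536435 had it on 2 arrays, so that they entered the test through the PACAP channel. Sec23b, the GTPase-activating subunit, gave 0.52 and 0.08, Sec23a -0.40, and the Sec23-binding Sec23ip -0.29 and 0.05.

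Sec22b, a SNARE of endoplasmic reticulum and Golgi transport, had 3 of 4 clones above 0. AI836222 read 0.68, 1.20, 1.14 and -0.12 on the 4 arrays (mean 0.72 ± 0.61, SD, unadjusted p = 0.0390 and adjusted p = 0.468 in limma), with array 4 alone below 0. The clone with a control signal above background on all arrays, AW539497, gave 0.22 ± 0.13 (SD). AW558836 gave 0.59, with 1.68 on array 3 and a control signal above background on 2 arrays. AW123426 gave -0.54 and was below 0 on all 4 arrays, with -1.94 on array 3. Sec22a gave 0.09, and the 3 Sec22c clones lay between -0.55 and 0.25, the lowest of them titled a SEC63 homolog.

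At the translocon 8 of 15 clones were above 0 (median 0.08). The median was -0.10 without array 2, -0.00 without array 3, -0.06 with the arrays scaled to 1 spread and -0.04 with normexp. With the deposited ratios it was -0.31, against -0.28 over all clones. Sec61a1, the pore subunit, had 4 clones between -0.17 and 0.15, of which the highest is titled fatso and the other 3 lay below 0 (all 3 above it with print-tip loess and the deposited ratios, and 2 with median centring). AW536182 was among the most even clones of all members, at -0.15, -0.18, -0.19 and -0.08. Sec61a2 gave 0.21 and 0.13, and the small subunits Sec61b and Sec61g 0.16 and 0.08. Sec62, which helps import short precursors after translation, had clones on both sides. AW555778 read 1933, 2268, 1532 and 5682 units with PACAP, against 1308, 1842, 666 and 4058 units in control, and was above control on all 4 arrays (mean log2 ratio 0.64 ± 0.39, SD, n = 4, limma adjusted p = 0.467). The other 3 Sec62 clones gave -0.10, -0.45 and -0.03. Sec63, its partner, gave 0.35, 0.39 and -0.77.

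**Figure D3:**
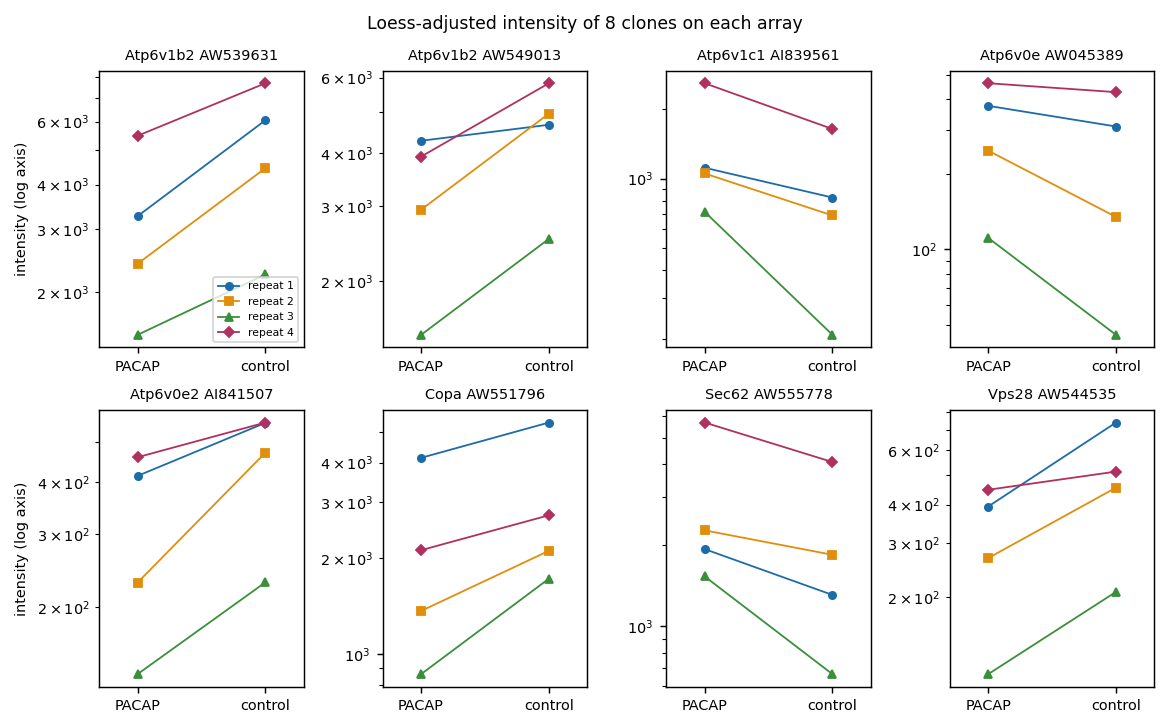
Loess-adjusted intensity (log axis) of 8 clones with PACAP (left) and in control (right); each line is 1 array. Lines of Atp6v1b2, Atp6v0e2, Copa and Vps28 slope up to control on all 4 arrays (with median centring the Atp6v1b2 and Copa means reverse), and lines of Atp6v1c1, Atp6v0e and Sec62 slope down.

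Clathrin clones were mostly above 0, at 8 of 10 (median 0.18, but -0.91 with the deposited ratios, against -0.28 over all clones). The heavy chain Cltc, which forms the legs of the lattice, had 4 clones at 0.25, 0.07, 0.33 and 0.50. Each had at least 1 array below 0, and with the deposited ratios 3 of the 4 were below 0. The light chain Clta lay between -0.06 and 0.19 in 4 clones, and Cltb gave 0.27 and -0.07. No clathrin clone had an unadjusted p under 0.05.

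The adaptors select cargo for vesicles, AP-1 and AP-2 by linking it to clathrin. They were centred near 0, with 21 of 40 clones above (median 0.02, but -0.45 with the deposited ratios, against -0.28 over all clones). The endocytic AP-2 held some of the most even values. Ap2m1, the subunit that reads tyrosine-based sorting signals, gave 0.09, -0.01, -0.04 and -0.08 in AI841209 (mean -0.01 ± 0.07, SD, 95% interval from -0.54 to 0.52 in limma), and -0.12 in its other clone. Ap2s1 gave 0.06 and -0.07, Ap2a1 0.03, and Ap2b1 -0.64 and -0.02. Ap2a2 had clones at -0.43, 0.30 and -0.63, the last of which is titled troponin T2.

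AP-3, which sorts cargo to lysosome-related organelles and dense-core granules, had 10 of 15 clones above 0. Its median was 0.16, and -0.07 with the deposited ratios, against -0.28 over all clones in that setting. All 3 clones of its mu subunit Ap3m1 were above 0. AI843477 read 0.38, 0.24, 0.44 and 0.40 on the 4 arrays (mean 0.36 ± 0.09, SD), and the others gave 0.49 and 0.34, though 2 of the 3 lay below 0 with the deposited ratios. Ap3b1, the ubiquitous beta subunit, read 0.08, 1.66, 1.15 and 0.32 (mean 0.80 ± 0.73, SD, unadjusted p = 0.0356 and adjusted p = 0.464 in limma), with a control signal above background on 2 arrays. Its neuronal counterpart Ap3b2 gave -0.14 and 0.02, the delta subunit Ap3d1 0.11 and Ap3s1 0.38. Ap3m2, the neuronal mu subunit, lay below 0 at -0.56 ± 0.51 (SD, unadjusted p = 0.0760 and adjusted p = 0.498 in limma), and the 6 Ap3s2 clones lay between -0.87 and 0.28.

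AP-1, the adaptor of the trans-Golgi network and of immature granules, had 6 of 12 clones above 0. Its gamma subunit Ap1g1 gave 0.01 and 0.45, Ap1m1 -0.61 and -0.22, Ap1m2 -0.22 and 0.16, Ap1s1 0.10 and 0.26, and the 3 Ap1s2 clones lay between -0.30 and 0.29. Ap1b1 gave -0.11. For AP-4 the clones were Ap4b1 at -0.51 and Ap4s1 at 0.30 and 0.33, and both Ap4s1 clones carry titles naming the beta 1 subunit.

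**Figure D4:**
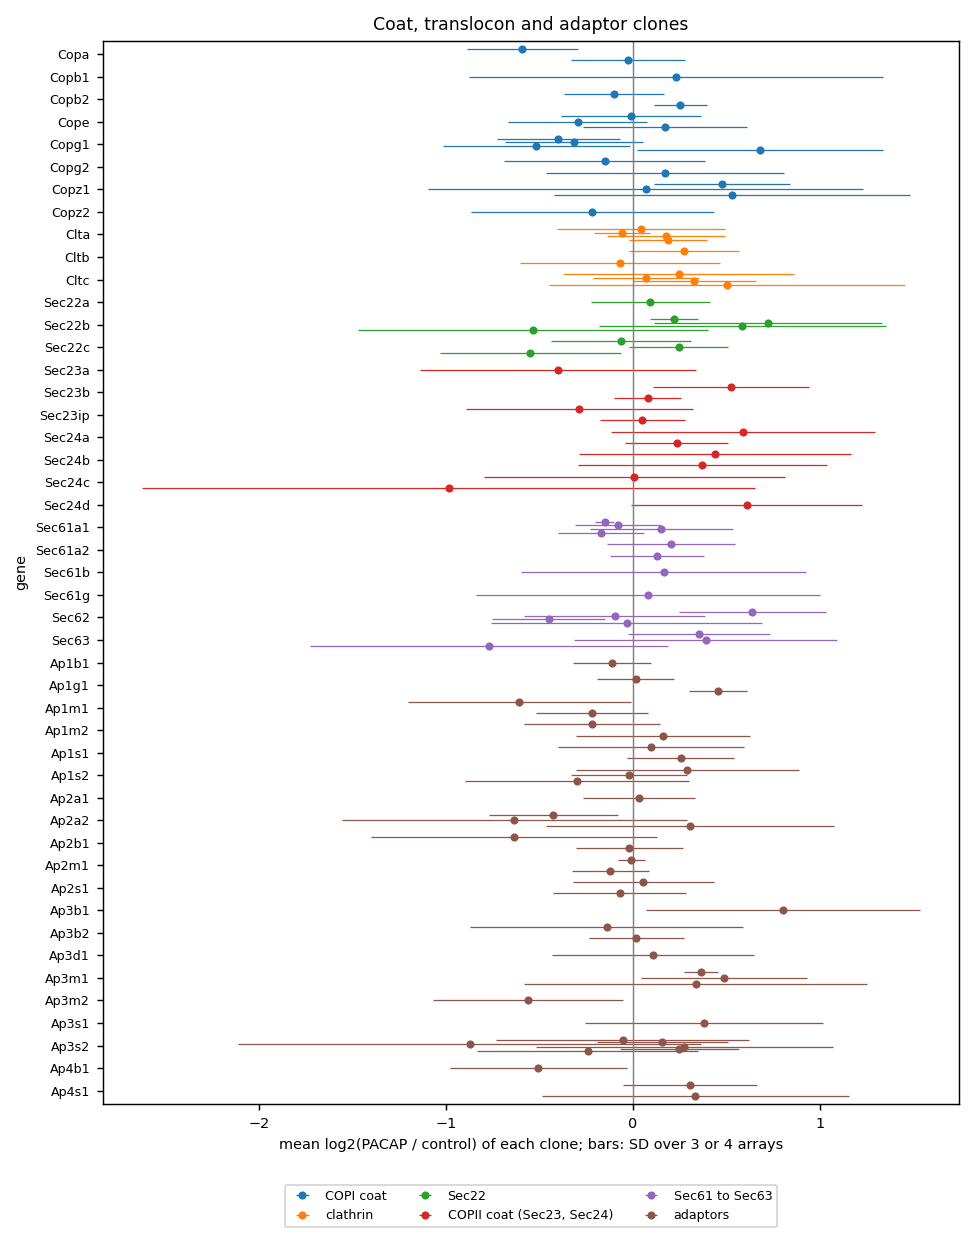
Mean log2(PACAP / control) of each COPI, clathrin, Sec and adaptor clone (points, rows by gene, colour by family) with bars of 1 SD over 3 or 4 arrays. Most bars cross 0; the exceptions include Copa on the left and Sec62 and Ap3m1 on the right.

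Vps clones had 35 of 73 means above 0 and 38 below (median -0.07, but 0.16 with median centring and 0.02 with the arrays scaled to 1 spread). Of the ESCRT machinery, which sorts membrane proteins into endosomal vesicles, Vps28 of ESCRT-I had 3 clones at -0.46, -0.21 and -0.69. AW544535 read 394, 268, 112 and 447 units with PACAP, against 740, 454, 208 and 512 units in control. It was lower on all 4 arrays (mean -0.69 ± 0.33, SD, n = 4, limma adjusted p = 0.454), and all 3 Vps28 clones stayed below 0 in each rescaling except the deposited ratios, where 1 was above. Vps25 of ESCRT-II gave 0.06, 0.27 and 0.55, although 1 clone was below 0 with print-tip loess and 2 with the deposited ratios.

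Vps4b, an ATPase that disassembles ESCRT-III, held the highest member ratio. AW544499 read 0.72, 1.01, 2.77 and 0.37 on the 4 arrays (mean 1.22 ± 1.07, SD, limma adjusted p = 0.454), all above 0 with array 3 far above the others. Its control signal passed background on 3 arrays, and on array 3 the clone read 222 units with PACAP against 32.5 in control. The other Vps4b clone had a mean of -0.41. Vps4a gave 0.02 and Vps36 0.40 and 0.04. Vps37a, an ESCRT-I subunit, had 4 clones between -1.02 and 0.16, and the lowest, AU022343, had a median spot area of 42 pixels and read 0.17 on array 4. Vps37c had 3 clones between -0.30 and 0.72, and Vps37d 1 at -0.57.

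The tethers HOPS and CORVET, which prepare fusion with late and early endosomes, had 7 of 16 clones above 0. Vps11, a core subunit of both, had clones at -0.43 and -0.68, both below 0 on all 4 arrays, although 1 of the 2 was above 0 with median centring and 1 with the deposited ratios. C86326 read -0.48, -1.48, -0.66 and -0.11 (mean -0.68 ± 0.58, SD, unadjusted p = 0.0448 and adjusted p = 0.474 in limma). Vps16, of the same core, disagreed between clones: AI853459 had a mean of -1.64 ± 2.01 (SD) with 1.00 on array 4, and AW547390, bright on all arrays, -0.14 ± 0.13 (SD). Vps41 of HOPS gave 0.41, 0.46, -0.23 and -0.21, Vps33a 4 values between -0.28 and 0.43, Vps18 0.39, Vps39 0.05 and Vps8 -0.02.

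Retromer and retriever, which return cargo from endosomes, had 10 of 15 clones above 0 (median 0.16, but -0.10 without array 2). Their median was -0.20 with the deposited ratios, against -0.28 over all clones in that setting. The retromer core Vps35 gave 0.24, Vps26a 0.30 and 0.00, Vps29 -0.13 and 0.33, and the 4 Vps26b clones lay between -0.32 and 0.46. Of retriever, Vps35l gave 3 values between -0.16 and 0.17 and Vps26c 3 between -0.71 and 0.37. GARP and EARP, tethers for endosome-derived vesicles, had 5 of 12 above 0. Their shared subunit Vps51 lay at -0.41, -0.54 and -0.08, although all 3 clones were above 0 with the deposited ratios. The other shared subunits Vps52 and Vps53 gave -0.32 and 0.19, and 0.29 and 0.30, and Vps54 lay between -0.50 and 0.53 in 3 clones.

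The lipid transfer proteins of the Vps13 family held the lowest member ratio. Vps13c clone AW061327 had values on 3 arrays, -2.55, -3.26 and 0.45 (mean -1.79 ± 1.97, SD), with a median spot area of 24 pixels, and its other clones gave 0.51, in a clone titled small inducible cytokine A9, and -0.11. Vps13b gave 0.73 ± 0.60 (SD) in AW046372, above 0 on all 4 arrays (unadjusted p = 0.0376 and adjusted p = 0.467 in limma). The control signal of AW046372 passed background on 2 arrays. Another Vps13b clone, titled neuraminidase 1, gave -0.09. Vps13d had a mean of -0.82. Vps45, a partner of syntaxins, gave -0.28 and 0.35, and Vps72, a subunit of chromatin remodellers that shares the letters only, -0.32 and -0.26.

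**Figure D5:**
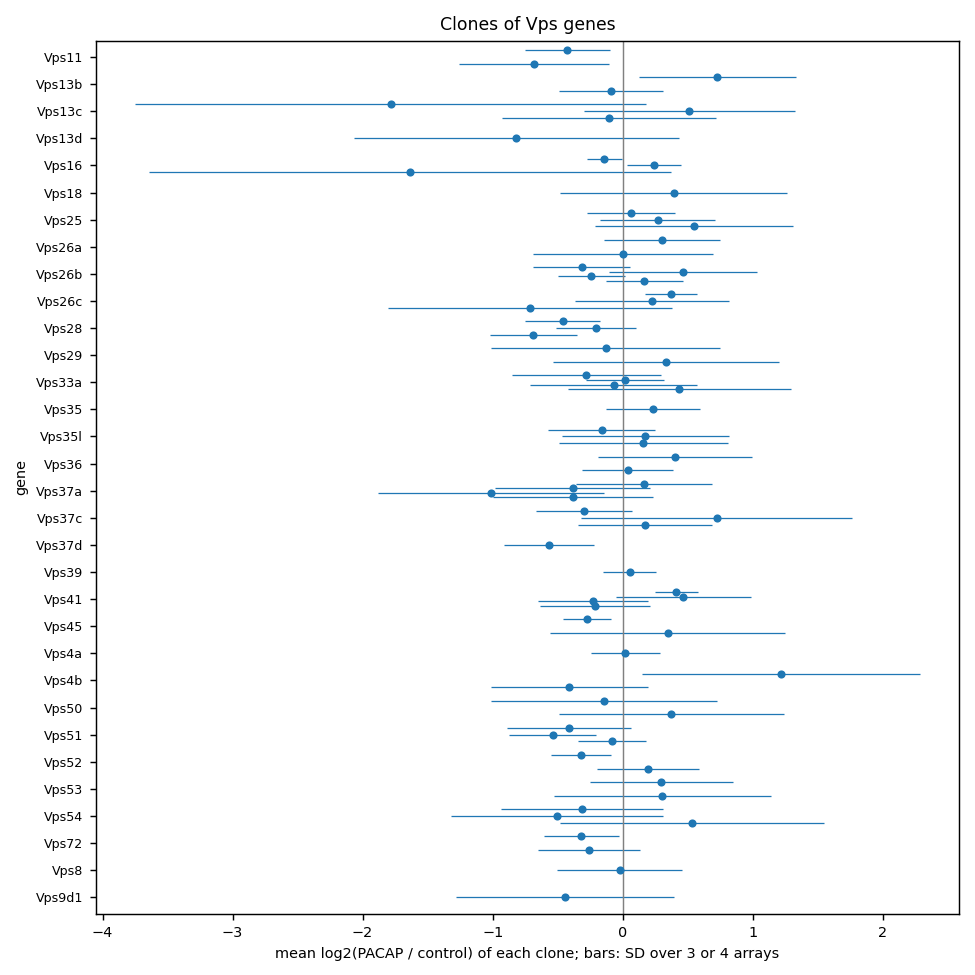
Mean log2(PACAP / control) of each Vps clone (points, rows by gene) with bars of 1 SD over 3 or 4 arrays. The 3 Vps28 points lie left of 0 (2 of 3 with the deposited ratios), and the widest bars belong to the lowest Vps13c and Vps16 clones.

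Clones of the same gene agreed in sign about as often as elsewhere on the arrays. Of 71 member genes with 2 or more tested clones, 16 had all clones above 0 and 14 all below (42.3%, against 41.2% of 5935 genes). With 3 or more clones it was 5 and 4 of 34 genes (26.5%, against 24.9% of 2611 genes). Those 9 were Atp6v0e, Cltc, Copz1, Vps25 and Ap3m1 above 0 and Atp6v1b2, Atp6v0e2, Vps28 and Vps51 below. For pump genes with 2 or more clones it was 2 above and 6 below of 14 (57.1%). In 12 member clones the clone title in the scanner tables named another gene than the symbol. Without them the share of genes in agreement was 48.5% of 68 genes. Such clones were not removed from the share over all genes, so that both are not alike.

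Partners that recruit or release the coats gave values on both sides of 0. Of 30 genes for coat recruitment and budding 28 were tested (median -0.04), with 1 above and 1 below 0 at an unadjusted p under 0.05, near the 4.33% and 4.53% of all named genes. Arf4, a GTPase that recruits COPI, was above 0 on all 4 arrays, at 0.82, 1.07, 0.88 and 0.34 (mean 0.78 ± 0.31, SD, limma adjusted p = 0.454). Arfgef2, an exchange factor for ARF proteins, had a mean of -2.40 ± 1.66 (SD, limma adjusted p = 0.454) on spots with a median area of 25 pixels. Sar1a, the GTPase that starts COPII budding, gave 0.55, and Arcn1, the delta subunit of COPI whose symbol lacks the Cop letters, 0.42.

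For clathrin uncoating, endocytosis and sorting 26 of 32 genes were tested (median 0.10), with 0 above and 2 below 0 at that level, against 4.33% and 4.53% of all named genes. Gak, the auxilin-like uncoating kinase, read -0.56, -1.33, -0.78 and -0.79 (mean -0.87 ± 0.33, SD, limma adjusted p = 0.454), and the ESCRT-III subunit Chmp4b had a mean of -0.64. Stam and Snx5 had means of 0.52 and 0.53.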

How the data were processed

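The 4 arrays, 1 for each biological repeat, were analysed as 1 group of 4 log2 ratios. Per the file headers, the scanner tables give intensity on a linear scale. The deposited mean intensities already had local background removed, as checked from the values. Which program read the images is not given in the sources here. The deposited ratio of Cy5 to Cy3, calibrated by 1 factor per array (1.69, 1.97, 1.53 and 0.432), and the deposited log2 values of the series table were used for the join and as an alternative. Spot area in pixels is given as deposited and called other in kind. Series table entries carry the gene symbols. They were joined to spots by plate position, and 35695 of 35743 were kept where recomputed values matched within 0.1 log2. The recomputation subtracted local background from the mean intensities again and floored each channel at 1. The deposited log2 values thus had background removed a further time. Their medians before centring were 4.673, 5.511, 4.245 and -0.375 on arrays 1 to 4.

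Intensities were floored at 1 and log2(PACAP / control) was normalised by global loess within arrays in limma 3.58.1 (R 4.3.3). Clones entered the test if 1 or both channels passed 2 background SD on 3 or more of 4 arrays. Spots of a clone were averaged, lmFit and eBayes tested the mean against 0, 2-sided, and Benjamini-Hochberg adjustment ran over 35109 clones. The script was tested on simulated data. Figures used matplotlib 3.10.9. Tests measure the spread between the 4 arrays only, whose number limits the precision.

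Members, partner lists and markers were chosen with earlier results of these data known. All pump genes were named, and of each other family up to 6 genes by p, every gene with 3 or more tested clones and every clone with 1 sign on 4 arrays and unadjusted p under 0.05; of each partner list up to 4 genes by p. Others (Dmxl2, Slc18a1 and further coat, adaptor and Vps genes) were named after their values were seen.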

Additional observations from a re-analysis of the deposited data

Results flagged for a closer look

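Among 122 sets of 4 array values examined, 4 had 1 array far from the other 3, where chance flags about 1 set in 20. Atp6v1b2 clone AU016471 had a log2 ratio of -2.58 on array 3, against -0.34 to 0.00 on the others. Atp6v1e1 clone BE945282 had -1.06 on array 3, against -0.09 to 0.05. Vps37c clone AI854837 had 0.25 on array 1, against -0.54 to -0.43. The median over the Sec24 clones was 1.22 on array 3, against -0.12 to 0.01.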

How the results depend on the processing

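Each array holds PACAP and control RNA of 1 repeat, so that the test of the mean log2 ratio against 0 is already the paired comparison. The arrays form 1 group, and no further pairing was made. With the deposited log2 ratios, where background was removed a further time, 371 of 34893 clones had an adjusted p under 0.05 in limma. So did 2 of 218 member clones, Vps16 AI853459 and Vps13c AW061327. With trend and robust moderation these counts were 3 and 0. The 7 member clones with unadjusted p under 0.05 and a ratio above 0 became 24 with median centring, 12 with print-tip loess, 2 with the deposited ratios and 4 with both channels above background, and 1 to 12 with 1 array left out (1 without array 3, 12 without array 4). The 8 below 0 became 19 with the deposited ratios, 13 without spots under 60 pixels and 14 with trend and robust moderation, and 2 to 13 with 1 array left out (2 without array 3, 13 without array 4). An alternative chosen after seeing the data kept the 98 member clones with a control signal above background on 4 arrays. There the counts were 1 and 5. For these unadjusted counts the share over all clones in the same setting is not given. They therefore cannot be read against a background.

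The pump median of -0.17 became 0.15 with median centring, -0.58 with the deposited ratios, where the median of all clones was -0.28, and -0.017 with 1 value a gene, and it ran between -0.19 and -0.10 with 1 array left out. The coat and sorting median of 0.03 became 0.20, -0.27, -0.024 with both channels above background and -0.071 with a control signal on 4 arrays, and ran between -0.0016 and 0.072 with 1 array left out. The 11000 clones of the whole table with a control signal on 4 arrays had a median of -0.06 after loess, 0.25 with median centring and -0.63 with the deposited ratios. Atp6v1b2 AW539631 (0.26) and Copa AW551796 (0.28) reversed with median centring, and the other 13 of the 15 clones with unadjusted p under 0.05 kept their sign in the settings run. Of the 83 other named clones 33 kept their sign in all settings run. The causes were not tested.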
